A study of Homo sapiens with 12 samples.

Results

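The human zinc finger genes of chromosome 19 were followed through 2 keratinocyte lines, with and without an oxidant. The genes were chosen from the table of raw gene counts as protein-coding, placed on chromosome 19, carrying a name of ZNF and a number, and reaching an average of 10 raw counts or more over the 12 libraries. In all, 249 genes of the table fit this name and place, and 214 of them reached the limit and are described here, out of 58735 genes in the table and 16618 that reached the same limit. The remaining 35 did not, and 22 of those had a count in at least 1 library. The limit used the counts themselves, and it admitted 13 genes whose HaCaT libraries alone averaged under 10 and 4 whose TIGK libraries alone did. The genes just inside it were ZNF575 with an average of 12.42 raw counts and ZNF878 with 14.42, and those just outside were ZNF223 with 9.83 and ZNF221 with 9.

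HaCaT is a keratinocyte line from human skin that became immortal spontaneously, and TIGK is a gingival keratinocyte line immortalized with telomerase. Both were kept to confluency in the same medium, DermaLife K Keratinocyte Complete Medium, and either left untreated or given 5 mM H2O2 for 3 h, which made 4 groups of 3 libraries of polyadenylated RNA: untreated HaCaT, HaCaT with H2O2, untreated TIGK and TIGK with H2O2. The study asked how skin and oral keratinocytes differ in their response to oxidative stress, but each tissue is here 1 immortalized line, so the line and the tissue cannot be told apart. The sources used here do not state that the 3 samples of a group were separate cultures, and p-values then measure only the spread between these samples, which may be technical.

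Genes of this kind encode C2H2 zinc finger proteins, in which arrays of small zinc-binding modules read DNA sequence. Chromosome 19 holds large tandem clusters of them that arose by repeated duplication, and most of the encoded proteins carry a KRAB domain. The KRAB domain recruits the co-repressor TRIM28, which brings in the histone methyltransferase SETDB1 and HP1 proteins and leaves repressed chromatin, much of it on transposable elements. Of the 214 genes, 207 were annotated as C2H2 zinc finger transcription factors by the deposited table itself, and no family was given for the other 7.

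The libraries held between 30426401 and 49034244 counts. The 5 keratinocyte markers KRT5, KRT14, TP63, KRT6A and DSP together took from 34500 to 47200 CPM (counts scaled to a common library total) in the 12 libraries. The 4 fibroblast markers summed to between 8.39 and 25.2 CPM with the highest sums in TIGK with H2O2 and with COL1A2 at 0 throughout, the 3 melanocyte markers to at most 2.59, the 3 endothelial markers to at most 1.65 and the 3 immune markers to at most 0.163 CPM. The part of these other markers in the results was not tested. Levels are given below as normalized counts, meaning counts scaled by edgeR's TMM factors (0.962 to 1.04) to the mean library size. A gene was called when the quasi-likelihood test of edgeR, adjusted by Benjamini-Hochberg over the 16618 genes, gave a p under 0.01.

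The zinc finger genes were mostly of low abundance. Their average raw count ran from 12.42 to 4053 with a median of 168.4, and 30 of them stayed under 50. Per length, the median gene of the set stood at 1.08 RPKM (reads scaled by gene length and library total) in untreated HaCaT and at 1.13 RPKM in untreated TIGK. The highest level per length in both untreated lines was that of ZNF146, a protein built almost wholly of zinc fingers without a KRAB domain, at 20 ± 1.28 RPKM (SD, n = 3) in HaCaT and 33.5 ± 1.88 RPKM in TIGK. ZNF787 followed with 12.1 ± 0.965 and 18 ± 1.38 RPKM. ZNF317, a KRAB protein, came next, with 16.9 ± 0.253 RPKM in TIGK, within the spread of ZNF787, and 11.1 ± 0.218 RPKM in HaCaT, level with ZNF581 at 11.1 ± 1.1 RPKM. Each of these 3 genes was lower in untreated HaCaT than in untreated TIGK, with log2 fold changes of -0.74 for ZNF146, -0.58 for ZNF787 and -0.61 for ZNF317 (edgeR adjusted p of 5.53e-09, 8.55e-06 and 1.72e-08).

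Summed over the 214 genes, the level was lower in HaCaT than in TIGK and lower after H2O2 in both lines. The sum took from 1833 to 1854 CPM in untreated HaCaT and from 1337 to 1471 CPM in HaCaT with H2O2. In TIGK it took from 2194 to 2312 CPM untreated and from 1913 to 1917 CPM with H2O2. None of the 4 ranges overlapped another. The mean sum after H2O2 was 75.3% of the untreated one in HaCaT and 84.9% in TIGK, and HaCaT held 81.8% of the TIGK sum before and 72.5% after H2O2. These are shares of all counted RNA, and fewer cells with a transcript and less RNA per cell cannot be told apart in bulk samples.

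Close to silence in HaCaT stood 10 of the genes, which were expressed in TIGK. The criterion was a mean under 10 normalized counts in both groups of a line and of at least 30 in both groups of the other. It was met for HaCaT by 10 of the 214 genes (4.67%), by 3.54% of all genes tested, by 7 of 235 ZNF genes of other chromosomes (2.98%) and by 23 of 772 other protein-coding genes of chromosome 19 (2.98%). For TIGK it was met by 0 of the 214 genes and by 0.909% of all genes tested. With a limit of 5 normalized counts the numbers were 6 and 0, beside 2.63% and 0.554% of all genes. In order along the chromosome the 10 genes were ZNF556, ZNF439, ZNF93, ZNF382, ZNF415, ZNF677, ZNF582, ZNF667, ZNF471 and ZNF470, and they lay in 6 of the clusters described further on, on both arms. The limit on the mean count and the choice of ZNF439 used these levels, so they are a description.

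ZNF677 and ZNF667 had no count in any of the 6 HaCaT libraries. ZNF677 stood at 334, 350 and 380 normalized counts in untreated TIGK and at 330, 410 and 368 with H2O2. Against the floor of 3 counts per library it was at least 106.9-fold lower in HaCaT than in TIGK without H2O2 and at least 105.6-fold lower with it. ZNF667 stood at 352, 273 and 336 in untreated TIGK and at 239, 186 and 216 with H2O2, which made its level in HaCaT at least 96.5-fold lower before and at least 61.1-fold lower after H2O2. In both genes every TIGK library was far above every HaCaT library. ZNF677 overlaps AC092070.3 and ZNF667 overlaps its antisense gene ZNF667-AS1, both on the other strand. The sources used here do not state whether strand was used in counting, so reads of such partners may be shared.

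ZNF439 differed from those in showing a trace of expression in untreated HaCaT. Its libraries held 8 or 9 raw counts there and 0 in all 3 treated HaCaT libraries, against 133, 130 and 146 normalized counts in untreated TIGK and 137, 127 and 140 in TIGK with H2O2. The loss in HaCaT therefore spans only a few reads per library, and against the floor of 3 counts it was at least 2.25-fold. Between the lines after H2O2 the difference was at least 38.5-fold. In TIGK the level before and after H2O2 overlapped (log2 fold change of -0.02 ± 0.21 SE, edgeR adjusted p = 0.955). ZNF439 overlaps AC020951.1 on the same strand.

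The other 7 genes had between 0 and 16 raw counts in each HaCaT library. ZNF556 held 292, 309 and 369 normalized counts in untreated TIGK against 1.53, 0 and 1.98 in untreated HaCaT. ZNF415 held 288, 253 and 237 against 1.53, 0 and 2.96, and ZNF382, a KRAB repressor, 208, 249 and 242 against 3.06, 0 and 0. ZNF93, a KRAB protein known to repress LINE-1 retrotransposons, averaged 168 normalized counts in untreated TIGK and 7 in untreated HaCaT. The criterion itself set the direction of the line difference for the 10 genes, so no test of it is given. None of the 7 was called in its HaCaT response, where the libraries scattered widely, as with 0, 0 and 17.1 normalized counts of ZNF382 after H2O2. Of the 7, ZNF415 overlaps ZNF347 on the same strand, ZNF582 overlaps genes on both strands, ZNF382, ZNF556 and ZNF93 overlap genes on the other strand, and ZNF471 and ZNF470 overlap no annotated gene.

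**Figure D1:**
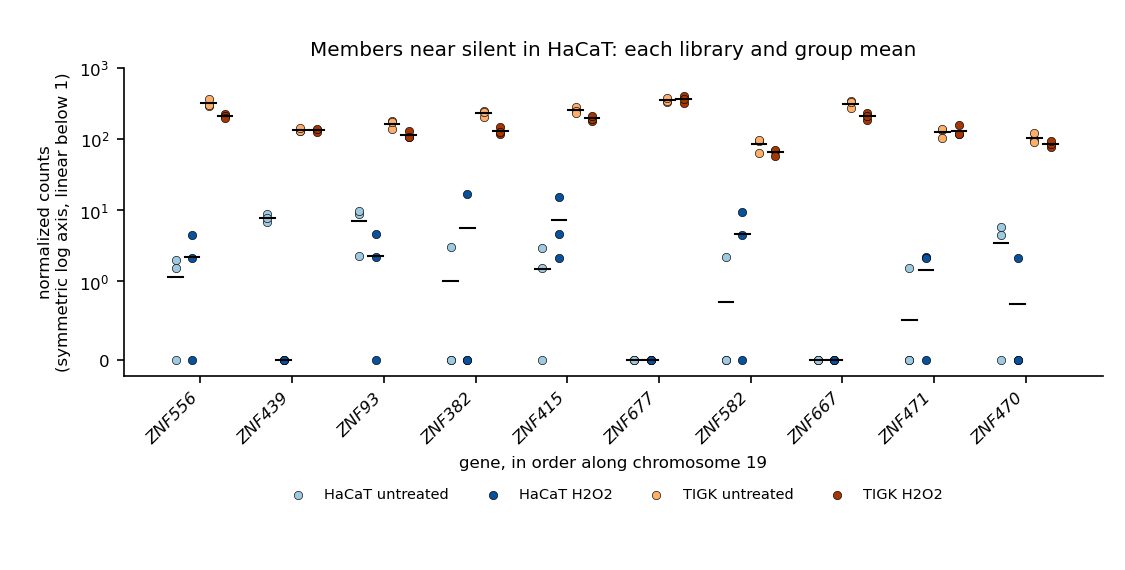
Normalized counts (symmetric log axis, linear below 1) of the 10 genes near silent in HaCaT, in order along the chromosome; points are libraries, 3 per group, and bars are group means. Every TIGK library lies above every HaCaT library of its gene, ZNF677 and ZNF667 are at 0 in all 6 HaCaT libraries, and ZNF439 is at 0 in the 3 treated HaCaT libraries alone.

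Although spread over the chromosome, 4 of the near-silent genes stood close together on the long arm, between chr19:56375846 and chr19:56588911 (GRCh38). This run was picked after its values were seen. From its proximal end it held ZNF582 (0.737 normalized counts in untreated HaCaT, 86.3 in untreated TIGK), ZNF583 (48 and 139), ZNF667, ZNF471 (0.509 and 127) and ZNF470 (3.5 and 105). ZNF583 was thus measured well within the same stretch in HaCaT, with a line difference of -1.51 on the log2 scale. Among the genes of the stretch that are no members, the pseudogene ZNF542P, ZNF667-AS1 and the zinc finger gene ZFP28, were at 0 in all untreated HaCaT libraries and averaged 626, 126 and 154 normalized counts in untreated TIGK.

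The reverse case was rare. ZNF626, picked after its values were seen, had 0 counts in all 6 TIGK libraries and 52, 36.5 and 44.4 normalized counts in untreated HaCaT. It held 24.5, 31.5 and 16 in HaCaT with H2O2, under the limit of 30, and was at least 14.1-fold higher in HaCaT without H2O2 and at least 6.9-fold higher with it. ZNF560 narrowly missed the criterion in the usual direction, with a single raw count over the 6 HaCaT libraries and means of 29.6 and 37.6 normalized counts in TIGK. ZNF665, picked after its values were seen, also missed it narrowly. Its means were 3.29 normalized counts in untreated HaCaT and 11.26 with H2O2, against 89.09 and 65.35 in TIGK. Its rise in HaCaT was not called (log2 fold change of 1.69, edgeR adjusted p = 0.0116). It lies between the near-silent ZNF415 and ZNF677, as does ZNF347, which averaged 118.6 normalized counts in untreated HaCaT and 613.1 in untreated TIGK.

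The sequences upstream of these genes were read from RefSeq (GRCh38.p14), which listed 237 promoters of 300 bases (250 before to 50 after the start) for 194 of the 214 genes. CpG content is shown because CpG sites are where DNA methylation acts at promoters. The promoters of the 9 near-silent genes that matched held a median of 24 CpG, with a range from 8 to 42 and a median ratio of observed to expected CpG of 0.80. Those of the whole set held a median of 20 and a ratio of 0.77, and all 35116 promoters of the table a median of 14 and a ratio of 0.58. Genes called higher in untreated HaCaT had a median of 18 CpG, and those called lower, with the near-silent genes left out, a median of 20. The windows below run from 250 to 51 bases upstream of the start, 5′ to 3′ on the strand of the gene, with each CG dinucleotide in capitals. They show near-silent genes with few and with many CG and, for contrast, ZNF121, a gene expressed in both lines that is taken up further on. The starts are those of RefSeq. For ZNF667 the coordinates used for counting reach chr19:56478065, so its window lies inside the gene as counted, and inside ZNF667-AS1. The motif searched was CG, which reads the same on both strands. It occurred in 99.6% of such windows of the set (median 11) and in 91.4% of those of all promoters (median 8), and its presence is no measurement of methylation. ZNF439 lies at chr19:11848476-11848675 on the plus strand with 7 CG, ZNF470 at chr19:56567218-56567417 on the plus strand with 11, ZNF667 at chr19:56477396-56477595 on the minus strand with 29, ZNF677 at chr19:53254924-53255123 on the minus strand with 17, and ZNF121 at chr19:9584555-9584754 on the minus strand with 16.
ZNF439: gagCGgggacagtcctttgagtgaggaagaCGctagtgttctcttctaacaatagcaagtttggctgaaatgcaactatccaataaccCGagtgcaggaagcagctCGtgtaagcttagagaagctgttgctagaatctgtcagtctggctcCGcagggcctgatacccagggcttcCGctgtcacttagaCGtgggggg
ZNF470: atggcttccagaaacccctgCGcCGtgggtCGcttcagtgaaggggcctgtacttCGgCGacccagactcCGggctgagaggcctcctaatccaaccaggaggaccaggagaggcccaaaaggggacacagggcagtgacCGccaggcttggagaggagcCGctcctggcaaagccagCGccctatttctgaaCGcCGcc
ZNF667: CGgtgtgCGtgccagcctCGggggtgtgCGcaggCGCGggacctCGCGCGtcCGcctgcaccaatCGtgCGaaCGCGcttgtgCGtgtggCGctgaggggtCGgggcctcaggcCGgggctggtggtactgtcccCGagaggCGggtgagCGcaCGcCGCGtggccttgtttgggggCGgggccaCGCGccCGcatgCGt
ZNF677: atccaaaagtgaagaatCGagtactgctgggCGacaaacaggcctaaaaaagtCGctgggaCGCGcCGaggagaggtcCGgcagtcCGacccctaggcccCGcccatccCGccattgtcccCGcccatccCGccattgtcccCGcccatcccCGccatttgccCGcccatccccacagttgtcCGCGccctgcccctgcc
ZNF121: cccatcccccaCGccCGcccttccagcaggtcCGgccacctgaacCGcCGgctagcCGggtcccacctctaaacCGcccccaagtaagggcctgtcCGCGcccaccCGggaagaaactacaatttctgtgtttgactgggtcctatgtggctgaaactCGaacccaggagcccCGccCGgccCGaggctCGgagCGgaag

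Across the whole set, the untreated lines differed more often towards TIGK. Of the 214 genes, 36 were called higher and 82 lower in untreated HaCaT than in untreated TIGK, where 29.1% of all genes tested were called higher and 30.8% lower. The higher calls were thus 16.8% of the set and the lower calls 38.3%. Here and with H2O2, the lower calls include the 10 genes near silent in HaCaT, whose direction the criterion set. The limit on the mean count had also admitted 13 genes averaging under 10 in HaCaT and 4 in TIGK, so these counts partly follow from it. The median log2 fold change was -0.27, and 142 of the 214 genes were fitted below 0, while all genes tested had a median of -0.01. The 235 ZNF genes of other chromosomes were called 77 higher and 49 lower with a median of 0.11, and the 772 other protein-coding genes of chromosome 19 were called 242 higher and 339 lower with a median of -0.23. With H2O2 in both lines, 26 of the 214 were called higher in HaCaT and 90 lower, beside 30.2% and 29.8% of all genes, and the median was -0.42. At an adjusted p under 0.05 the counts were 45 and 96 without H2O2, beside 33.7% and 35.1% of all genes, and 36 and 108 with it, beside 35% and 34.3%. With a log2 fold change past 1 required at the limit of 0.01, they were 23 and 48 without H2O2, beside 11.3% and 15.8%, and 16 and 48 with it, beside 11.5% and 15.5%.

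These comparisons before and after H2O2 share no library. The genes lower in both numbered 68, which is 82.9% of those lower before and 75.6% of those lower after H2O2, beside 83.3% and 86% of all genes tested. Those higher in both numbered 20, or 55.6% of those higher before and 76.9% of those higher after, beside 83.4% and 80.5%. A difference in these shares was not tested.

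The direction differed between places on the chromosome. The 249 genes were cut into clusters wherever more than 1 Mb lay free of them, and 9 clusters with at least 5 members held 205 of the 214. A pair of clusters on the long arm went opposite ways. Of 24 members between 36.18 and 37.82 Mb, 19 were called lower in untreated HaCaT, 0 higher, and all 24 were fitted below 0, with a median of -1.12. Of 20 members between 43.53 and 45.08 Mb, 14 were called higher, 0 lower, and 19 were fitted above 0, with a median of 1.35.

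In the first of these clusters the differences ran along its whole length, from ZNF146 to ZNF607. Apart from ZNF382, the lowest was ZNF793, picked after its values were seen, with 63.4, 35.4 and 66.2 normalized counts in untreated HaCaT against 418, 483 and 418 in untreated TIGK (log2 fold change of -2.98 ± 0.20 SE, edgeR adjusted p = 1.17e-10). ZNF585B, picked likewise, had a mean of 57.7 against 311 normalized counts. The 4 other protein-coding genes tested in the same span were also all lower, with a median of -1.39. After H2O2, 16 of the 24 were called lower and the median was -0.78.

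In the second cluster ZNF112 had 202, 196 and 207 normalized counts in untreated HaCaT against 47.8, 22.8 and 63.8 in untreated TIGK, a log2 fold change of 2.17 ± 0.31 SE (edgeR adjusted p = 4.5e-06). ZNF45 had 498, 529 and 535 against 131, 167 and 199 (1.65 ± 0.14, adjusted p = 4.01e-09). ZNF234 had 406, 399 and 348 against 133, 106 and 162 (1.52 ± 0.19, adjusted p = 6.08e-07). For all 3 genes the groups were well apart. ZNF224, a KRAB repressor that also binds the Wilms tumour protein WT1, is named for that role and had a log2 fold change of 1.36. In the same cluster ZNF226, ZNF283 and ZNF227 were called with 1.36, 1.36 and 1.46. The exceptions were ZNF229, at -0.08, and 5 genes fitted above 0 but not called. The 21 other protein-coding genes tested in the span were called 17 higher and 2 lower, with a median of 1.00. With H2O2 in both lines 10 members were called higher, 0 lower, and the median was 0.90.

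The remaining clusters were mixed or leaned to TIGK, except the most distal cluster of the short arm. That cluster, between 2.82 and 2.94 Mb, had a median of 1.0, with 3 of 5 members called higher in untreated HaCaT and 1 lower. Among the higher was ZNF554 with 162, 160 and 153 normalized counts against 28.5, 11.4 and 20.9 (log2 fold change of 2.96 ± 0.27 SE, edgeR adjusted p = 9.3e-09). The lower one was their neighbour ZNF556, near silent in HaCaT. Between 7.07 and 9.79 Mb, 1 of 14 members was higher and 8 were lower with a median of -0.53, while the 29 other protein-coding genes of the span were called 19 higher and 5 lower with a median of 0.86. Between 11.48 and 12.64 Mb, 0 of 18 were higher and 9 lower (median -0.76). The cluster next to the centromere, from 19.67 to 24.13 Mb, held both directions, with 5 of 27 higher and 9 lower, and included ZNF506 at 378, 343 and 328 against 70.2, 33.2 and 36.6 normalized counts as well as ZNF93.

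On the distal long arm, the clusters from 51.57 to 53.58 Mb and from 55.48 to 58.48 Mb held 36 and 56 members. In the former 6 were higher and 14 lower in untreated HaCaT, and in the latter 4 were higher and 19 lower, with medians of -0.23 and -0.26. The small cluster between 34.68 and 34.96 Mb had 0 of 5 higher and 1 lower. With gaps of 0.5 or 2 Mb in place of 1 Mb, 10 and 6 clusters had at least 5 members.

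**Figure D2:**
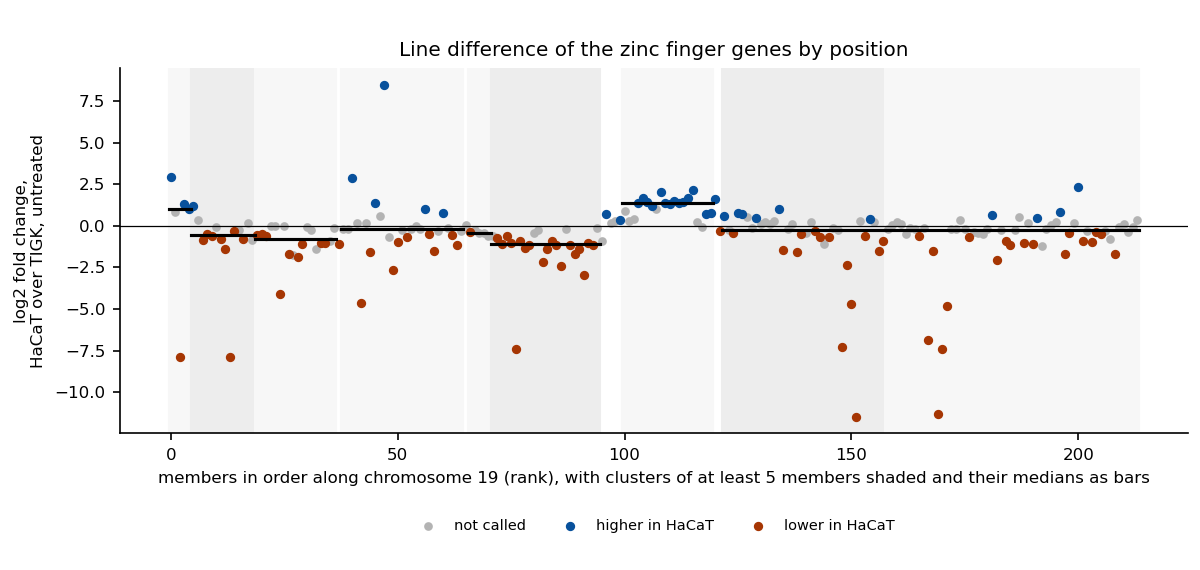
Log2 fold change of untreated HaCaT over untreated TIGK for the 214 genes in order along chromosome 19 (rank); shading marks the 9 clusters with at least 5 members, black bars their medians, and colour the calls at an edgeR adjusted p under 0.01. The shaded block that starts near rank 100 lies above 0 except for ZNF229, with a median of 1.35, and the shaded block before it lies below 0 with a median of -1.12.

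After H2O2 more genes of the set were called lower than higher in both lines, although most were not called. In HaCaT 7 of the 214 genes were called higher and 76 lower, while 18.9% of all genes tested were called higher and 15.2% lower. The lower calls were 35.5% of the set. The median log2 fold change was -0.44, with 172 genes fitted below 0, against a median of 0.04 over all genes. In TIGK 4 were called higher and 53 lower (24.8% of the set), beside 10.2% and 12.9% of all genes, with a median of -0.35 and 170 fitted below 0, against 0.01 over all genes. The libraries of treated and untreated cells did not overlap, with the treated lower, for 114 genes in HaCaT and 104 in TIGK, where 24.1% and 25.4% of all genes did so. At an adjusted p under 0.05 the counts were 12 higher and 103 lower in HaCaT, beside 26.3% and 20.7% of all genes, and 13 and 81 in TIGK, beside 17.3% and 18.8%. With a log2 fold change past 1 required at the limit of 0.01, they were 1 and 34 in HaCaT, beside 1.02% and 4.25%, and 0 and 17 in TIGK, beside 0.824% and 2.91%.

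The lean to lower levels was shared by ZNF genes elsewhere in the genome. Those 235 genes were called 18 higher and 87 lower (37%) in HaCaT with a median of -0.27, and 13 higher and 69 lower (29.4%) in TIGK with a median of -0.23, so their shares called lower were no smaller than those of the chromosome 19 set while their medians lay nearer to 0. The other protein-coding genes of chromosome 19 lay on the opposite side, with 236 higher and 52 lower of 772 in HaCaT (median 0.20) and 81 higher and 54 lower in TIGK (median 0.07). Among the 62 members that overlap no other annotated gene, 1 was higher and 23 were lower in HaCaT with a median of -0.46, and 2 were higher and 10 lower in TIGK with a median of -0.25.

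**Figure D3:**
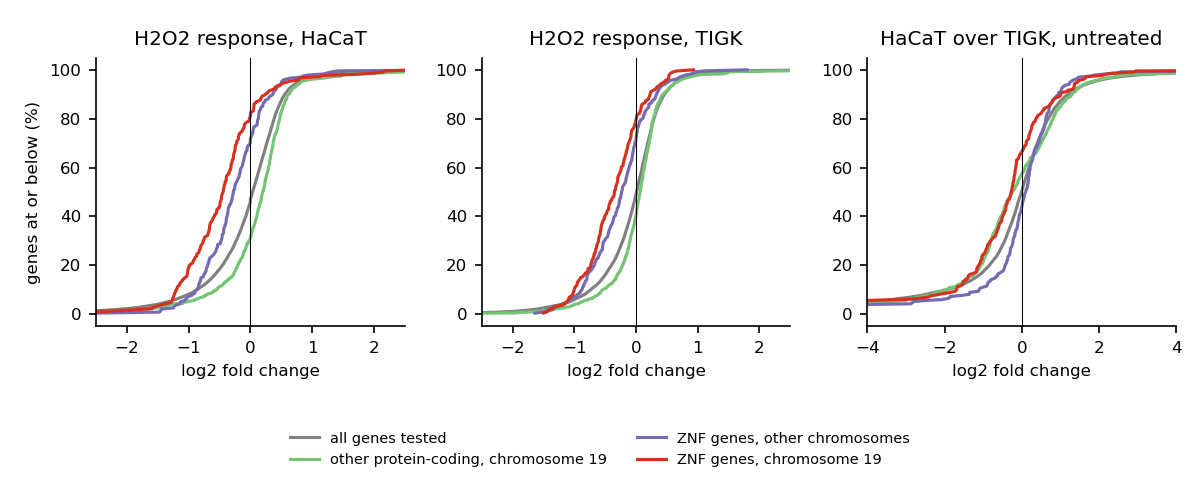
Cumulative distributions of log2 fold changes for the 214 zinc finger genes of chromosome 19 (red), 235 ZNF genes of other chromosomes, 772 other protein-coding genes of chromosome 19 and all 16618 genes tested; the vertical axis is the percentage of genes at or below a value. In both H2O2 responses the red line lies left of the others over most of its range, with medians of -0.44 in HaCaT and -0.35 in TIGK.

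Among genes with at least 100 normalized counts untreated, the largest falls in HaCaT were those of ZNF780A, ZNF543, ZNF587, ZNF549 and ZNF417. ZNF780A held 371, 392 and 403 normalized counts before and 131, 140 and 117 after H2O2 in HaCaT, a log2 fold change of -1.58 ± 0.16 SE (edgeR adjusted p = 4.51e-07), and 286, 337 and 404 before and 194, 136 and 200 after in TIGK, a change of -0.95 (adjusted p = 0.00012). ZNF587, whose product binds HERV-K type elements, held 641, 658 and 629 before and 290, 213 and 202 after H2O2 in HaCaT (-1.45 ± 0.12, adjusted p = 2.95e-08), and it fell by 1.00 on the log2 scale in TIGK. Its close relative ZNF417, with which it may share reads, fell by 1.30 in HaCaT and was fitted at -0.65 in TIGK without being called. ZNF543 and ZNF549 changed by -1.57 and -1.38 in HaCaT and by -1.04 and -1.01 in TIGK, all called. In these 5 genes the treated HaCaT libraries lay below all untreated ones.

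By the same rule the largest falls in TIGK were those of ZNF681, ZNF493, ZNF799, ZNF43 and ZNF606. ZNF681 held 245, 278 and 259 normalized counts before and 124, 75.2 and 95.8 after H2O2 in TIGK, a log2 fold change of -1.41 ± 0.18 SE (edgeR adjusted p = 9.19e-06). In HaCaT it changed by -0.66 with an adjusted p of 0.00703, a call lost with a replicate block or without any 1 of 5 HaCaT libraries (all but H2O2 replicate 1), at an adjusted p of up to 0.04. ZNF493, ZNF799, ZNF43 and ZNF606 changed by -1.36, -1.33, -1.18 and -1.16 in TIGK. Of these, ZNF43 was not called without H2O2 replicate 2 of TIGK (adjusted p = 0.0119), and ZNF606 was not called without H2O2 replicate 2 or 3 (adjusted p of up to 0.0105). In HaCaT ZNF606 fell by 1.21, while the others, ZNF493 at -0.62, ZNF799 at -0.24 and ZNF43 at 0.05, were not called. The difference between the lines was itself not called for any of the 5 (adjusted p from 0.0262 for ZNF799 to 0.963 for ZNF606).

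ZNF91, a KRAB protein known to repress SVA retrotransposons and named here for that role, fell in both lines. It held 730, 938 and 853 normalized counts before and 407, 348 and 317 after H2O2 in HaCaT (log2 fold change of -1.23 ± 0.12 SE, edgeR adjusted p = 2.86e-07). In TIGK it held 435, 499 and 535 before and 253, 246 and 287 after (-0.90 ± 0.13, adjusted p = 2.02e-05). In both lines the treated libraries lay below all untreated ones.

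A few genes went up. ZNF480 was upregulated in both lines, from 792, 682 and 616 to 942, 938 and 1027 normalized counts in HaCaT (log2 fold change of 0.47 ± 0.10 SE, edgeR adjusted p = 0.000618) and from 341, 341 and 346 to 708, 657 and 599 in TIGK (0.93 ± 0.10, adjusted p = 1.22e-06). ZNF274, which is known to bind the 3′ ends of zinc finger genes and to bring SETDB1 there through TRIM28, rose in TIGK from 704, 821 and 690 to 1097, 1097 and 1148 (0.59 ± 0.09, adjusted p = 5.76e-05). In HaCaT it went from 550, 631 and 510 to 737, 674 and 704 (0.32 ± 0.09, adjusted p = 0.00847), a call that did not hold under 13 of the alternatives, among them fits without untreated replicate 1 or 3 or without any of the treated HaCaT libraries, with an adjusted p of up to 0.0507. ZNF480 and ZNF274 were the 2 genes called higher in both lines.

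Among genes called in HaCaT and not in TIGK, the largest rise was that of ZNF524, a telomere-binding protein, from 129, 107 and 84.9 to 214, 241 and 269 normalized counts (log2 fold change of 1.17 ± 0.19 SE, edgeR adjusted p = 6.94e-05). ZNF628 rose by 0.78, and ZNF358, ZNF576 and ZNF787 by 0.63, 0.59 and 0.38. The calls of ZNF358 and ZNF787 were lost without untreated replicate 1 or 2 or H2O2 replicate 2 of HaCaT (adjusted p of up to 0.0394 and 0.0339), and that of ZNF576 without any 1 HaCaT library (up to 0.0176). The difference between the lines was not called for any of these 5 genes, with an adjusted p from 0.0278 for ZNF628 to 0.769 for ZNF576. In TIGK, ZNF880 and ZNF561 rose by 0.53 and 0.34, and the call of ZNF880 was lost under 10 alternatives, including fits without any 1 TIGK library or without any 1 untreated HaCaT library (up to 0.0526).

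The responses of the lines share no library. The genes called lower in both numbered 34, which is 44.7% of those lower in HaCaT and 64.2% of those lower in TIGK, beside 51.9% and 61% over all genes tested, of which 7.9% were lower in both. The 2 called higher in both were 28.6% of those higher in HaCaT and 50% of those higher in TIGK, beside 35.3% and 65.1%.

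**Figure D4:**
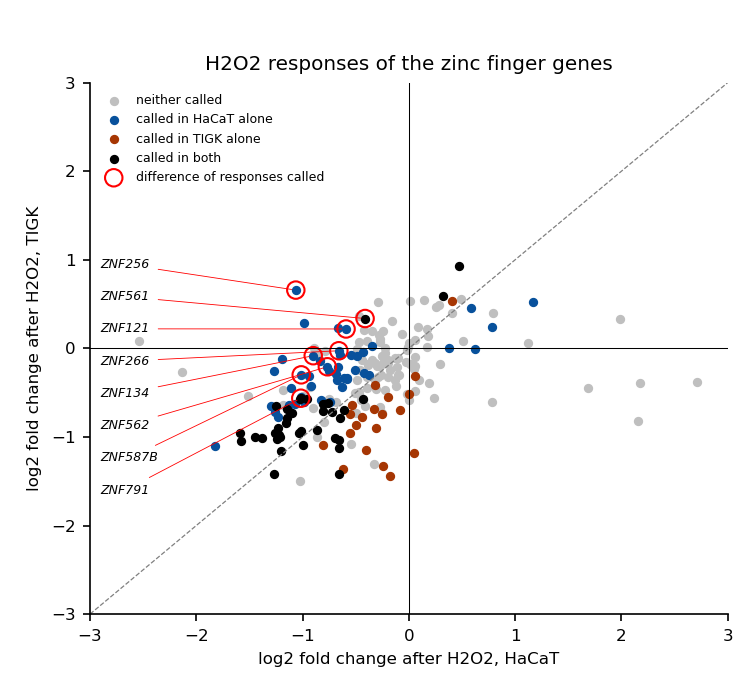
Log2 fold change after H2O2 in HaCaT (horizontal) against TIGK (vertical) for the zinc finger genes, coloured by the line in which they were called; red circles mark genes whose responses differed between the lines, and the dashed line marks equal responses. Most points lie in the lower left, and ZNF439, with a fitted value beyond the axis limit of 3, is not drawn.

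The H2O2 responses were also read by position. In HaCaT the cluster medians ran from -0.68 (43.53 to 45.08 Mb) to -0.23 (36.18 to 37.82 Mb), and the genes called lower, 15.2% over all genes tested, numbered 1 of 5 in each of the clusters from 2.82 to 2.94 Mb and from 34.68 to 34.96 Mb. They numbered 10 of 27 from 19.67 to 24.13 Mb, 23 of 56 from 55.48 to 58.48 Mb and 8 of 18 from 11.48 to 12.64 Mb. In TIGK, where 12.9% of all genes were called lower, the cluster from 19.67 to 24.13 Mb had 12 of 27 called lower with a median of -0.68, and that from 55.48 to 58.48 Mb 19 of 56 with a median of -0.45. Fewer were called lower in TIGK in the clusters from 43.53 to 45.08 Mb, with 2 of 20 and a median of -0.3, and from 51.57 to 53.58 Mb, with 4 of 36 and a median of -0.22. In the cluster from 7.07 to 9.79 Mb, 0 of 14 were called lower and 1 higher in TIGK, with a median of 0.06. There, 7 of the 14 were lower in HaCaT and the median was -0.34. The 29 other protein-coding genes of that span had medians of 0.25 in HaCaT and 0.08 in TIGK.

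The test of the difference between the responses found 9 of the 214 genes, all with the higher response in TIGK, and 0 in the other direction, where 2.32% and 2.98% of all genes were called. At an unadjusted p under 0.05 edgeR gave 36 and 15 genes, beside 10.9% and 15% of all genes, and DESeq2 called 13 and 4 at its adjusted p under 0.01, beside 4.15% and 4.43%. At an edgeR adjusted p under 0.05 there were 17 and 7, beside 5.1% and 7.05%, and with a difference past 1 on the log2 scale at 0.01 there were 2 and 0, beside 0.62% and 0.518%. The median difference was 0.12 over the set and -0.04 over all genes tested. By position 4 of the 9 lay between 7.07 and 9.79 Mb, 2 between 11.48 and 12.64 Mb, and 3 between 55.48 and 58.48 Mb.

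The 4 genes of the first cluster, ZNF266, ZNF121, ZNF561 and ZNF562, stood in a row between chr19:9412461 and chr19:9675086 (GRCh38) with ZNF560 and ZNF426 among them. ZNF121 held 1946, 2083 and 2263 normalized counts in untreated HaCaT and 1627, 1292 and 1260 with H2O2, against 2399, 2445 and 2595 and then 2902, 2887 and 2874 in TIGK. Its level thus fell to 66.4% of the untreated mean in HaCaT and stood at 116.5% in TIGK, a difference of 0.81 ± 0.12 SE on the log2 scale (edgeR adjusted p = 0.00014). ZNF561 held 1008, 964 and 934 and then 774, 666 and 745 in HaCaT. In TIGK it held 1529, 1647 and 1761 and then 2068, 2119 and 2050, so it fell in one line and rose in the other, both called (0.75 ± 0.10, adjusted p = 0.000107).

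ZNF562 went from 2931, 2959 and 2948 to 1784, 1824 and 1592 normalized counts in HaCaT and from 2523, 2552 and 2696 to 2179, 2310 and 2242 in TIGK (difference of 0.56 ± 0.09 SE, edgeR adjusted p = 0.000258). Both lines moved the same way, and the change in TIGK alone was not called (adjusted p = 0.0117). ZNF266 went from 616, 582 and 603 to 450, 344 and 349 in HaCaT and from 1489, 1557 and 1639 to 1433, 1511 and 1653 in TIGK, where the groups overlapped (0.63 ± 0.13, adjusted p = 0.00416). That call was lost without untreated replicate 1 or 3 of HaCaT or untreated replicate 1 of TIGK, and with a replicate block (adjusted p of up to 0.0136). ZNF426, in the same row, had a difference of 0.46 that was not called (adjusted p = 0.0397). ZNF560, also in the row and almost without counts in HaCaT, was fitted the other way at -1.66 and not called (adjusted p = 0.558). ZNF561 and ZNF562 both overlap ZNF561-AS1 on the other strand, which was not called in this test, while ZNF121 and ZNF266 overlap no annotated gene.

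Of the other 5, ZNF256, a KRAB protein that binds TRIM28, differed most among genes with counts in every library. It held 61.1, 69.6 and 58.3 normalized counts and then 43.4, 19.8 and 26.7 in HaCaT, against 110, 111 and 132 and then 180, 202 and 175 in TIGK. In neither line did the treated and untreated libraries overlap, and the difference was 1.72 ± 0.33 SE (edgeR adjusted p = 0.0022). The rise of ZNF256 in TIGK was not itself called. The call of its fall in HaCaT was lost under 3 alternatives, the fit on the compared groups and those without H2O2 replicate 2 or 3 of HaCaT (edgeR adjusted p of up to 0.0131). ZNF439 was singled out for its silence in HaCaT when the genes were chosen, so its place among the 9 is a description. Its fitted difference of 5.96 depends on the prior count, since HaCaT with H2O2 held no read, and the counts show only the lower bound of 2.25-fold on its loss in HaCaT. ZNF134 stood at 53.7% of its untreated mean in HaCaT and 94.5% in TIGK (difference of 0.82, adjusted p = 0.00392), ZNF587B at 49.5% and 81.3% (0.71, adjusted p = 0.00311) and ZNF791 at 49.4% and 67.7% (0.45, adjusted p = 0.00825).

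The last 3 calls were lost under some alternatives. That of ZNF791 was lost under 8 alternatives, 7 of them fits without 1 library (untreated replicate 2 or 3 or H2O2 replicate 3 of HaCaT, untreated replicate 1 or 2 or H2O2 replicate 1 or 2 of TIGK), at an adjusted p of up to 0.0256. That of ZNF134 was lost without untreated replicate 1 of HaCaT, untreated replicate 1 of TIGK or H2O2 replicate 1 of TIGK (up to 0.016), and that of ZNF587B without untreated replicate 2 of HaCaT (0.0127). The calls of ZNF121, ZNF561, ZNF562 and ZNF256 held at an adjusted p under 0.01 in all 16 alternatives that changed the fit or the libraries. With a difference past 1 on the log2 scale required as well, those of ZNF121, ZNF561 and ZNF562 were not kept.

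**Figure D5:**
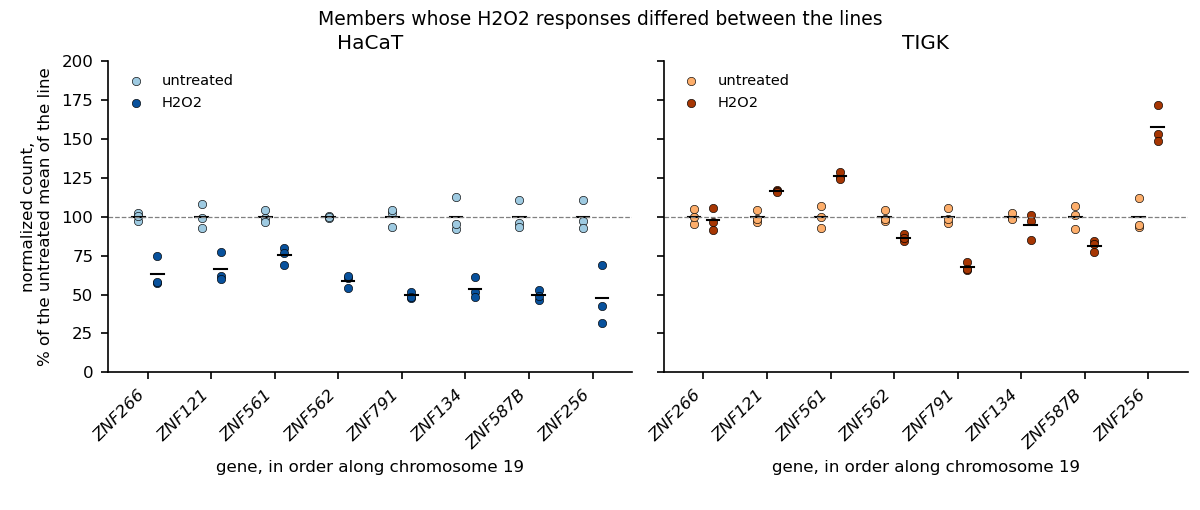
Normalized counts as a percentage of the untreated mean of the same line for 8 of the 9 genes whose H2O2 responses differed between HaCaT (left) and TIGK (right); points are libraries, 3 per group, and bars are group means, with ZNF439 left out because it had no count in treated HaCaT. In HaCaT the treated means lie between 47.6% and 75.2%, and in TIGK between 67.7% and 157.9%.

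The library profile most like that of ZNF439 over all 12 libraries belonged to ZNF266 (Pearson r of 0.992 on log2 CPM), then ZNF136 (0.983) and ZNF317 (0.975). All 4 genes were lower in HaCaT than in TIGK, and the libraries fall into these 2 lines, so the values carry the line difference and say little of the libraries within a line.

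The partners through which KRAB proteins act were measured beside them, together with ZFP57, as a list of 14 genes of which all 14 were tested. They are TRIM28, SETDB1 and its cofactor ATF7IP, the HP1 genes CBX1, CBX3 and CBX5, the chromatin remodeller CHD3, and DNMT1 and UHRF1 of DNA methylation. To these come MPHOSPH8, FAM208A (TASOR), PPHLN1 and MORC2 of the HUSH pathway, and the imprint keeper ZFP57, itself a C2H2 zinc finger gene. In HaCaT 3 rose and 2 fell after H2O2, in TIGK 4 rose and 1 fell, and 0 were called in the difference of the responses. Over all genes tested 18.9% were called higher and 15.2% lower in HaCaT, and 10.2% and 12.9% in TIGK, so the counts in HaCaT were close to those shares. TRIM28 averaged 17670 normalized counts in untreated HaCaT, 21250 with H2O2, 20320 in untreated TIGK and 21100 with H2O2. Its rise in HaCaT was 0.27 on the log2 scale (edgeR adjusted p = 0.000582). CBX1 and CBX3 rose in both lines, by 0.28 and 0.28 in HaCaT and by 0.32 and 0.24 in TIGK, whereas CBX5 changed by -0.44 and -0.40. ATF7IP rose by 0.66 in TIGK (adjusted p = 2.06e-05) and MPHOSPH8 by 0.27, while SETDB1 was called in no comparison.

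Between the untreated lines 6 of the 14 were higher and 5 lower in HaCaT, beside 29.1% and 30.8% of all genes tested. MPHOSPH8 was higher by 1.51 on the log2 scale. CBX5 and DNMT1 stood lower, with log2 fold changes of -1.22 and -0.98, and TRIM28 with -0.20 (edgeR adjusted p = 0.00279).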

How the data were processed

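RNA was measured in 12 libraries, 3 per group, grouped by their titles. The authors deposited raw read counts per gene, as whole numbers that were not normalized, with gene coordinates on GRCh38. The submitters' processing notes name HISAT2 (2.0.5 and 2.0.0), StringTie 1.3.3b, featureCounts 1.5.0-p3 and DESeq2. Annotation release, strand setting and the handling of reads with several places are not given in the sources used here, and such reads could be shared between these closely related genes. The labels write the compound of the treated replicates with a changing last digit, while the protocol states H2O2 for all. Deposited tables of the authors' own comparisons, which hold fold changes and p-values, were not used. The count table held 0 lines without a gene and 0 further sample columns.

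The analysis ran in R 4.3.3, using edgeR 4.0.16 (TMM, glmQLFit, glmQLFTest) on all 16618 genes averaging 10 or more raw counts, with 1 mean per group (common dispersion 0.0073, median prior degrees of freedom 10.4) and two-sided tests. The fit was tested on simulated counts. DESeq2 1.42.0 served as an alternative, and figures were drawn with matplotlib 3.10.9. The other alternatives were RLE scaling, no filter, the compared groups alone, limits of 0.05 or of a log2 fold change of 1, a replicate block and leaving out each library in turn. No pairing of samples by replicate number was seen, as deviations of libraries with the same number correlated between -0.121 and 0.026. This does not show that the samples were unpaired. RPKM used the gene length of the table. Precision was limited by the number of libraries, and for the low genes by depth. The SE values come from the edgeR fit and include the spread between libraries, while the floors cover counting error only. A fold against a group without counts was computed against 3 counts in the library of that group where they weigh most.

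Genes were named if near silent in a line, if called in the difference of responses, or if among the 3 highest per length. Also named were the 5 largest called changes in each direction, where the higher group averaged 100 normalized counts or more without overlap of libraries. The 14 genes of the co-repressor list, which includes ZFP57, were named as well. Further names are stated to be chosen otherwise. The genes, lists and tests were chosen with earlier results of these data known. Protein sequences were not used here.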

Additional observations from a re-analysis of the deposited data

Results flagged for a closer look

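The H2O2 response differed between the lines for 9 zinc finger genes, ZNF439 among them, by edgeR's test of the difference itself (adjusted p under 0.01), with differences of log2 fold changes, TIGK minus HaCaT, of 0.63 for ZNF266, 0.81 for ZNF121, 0.75 for ZNF561, 0.56 for ZNF562, 0.45 for ZNF791, 0.82 for ZNF134, 0.71 for ZNF587B and 1.72 for ZNF256. ZNF561 moved in opposite directions in the lines, with both changes called. ZNF439, singled out for its silence in HaCaT when the genes were chosen, is given as a description. Its fitted difference of 5.96 depends on the prior count, since the untreated HaCaT libraries held 8 or 9 raw counts and the treated ones 0, and the counts show a loss in HaCaT of at least 2.25-fold. The 4 genes ZNF266, ZNF121, ZNF561 and ZNF562 are neighbours in the cluster between 7.07 and 9.79 Mb. The median difference of its 14 members was 0.41, with these 4 genes counted in, so it is no separate result. No other member of the cluster was called, and 3 of the 14 were fitted below 0. The 29 other protein-coding genes of the same span had a median of -0.20. The cause was not tested.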

How the results depend on the processing

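The direction of the 112 calls of named genes was kept in all 1895 values recomputed under the alternatives, and 92 of these values fell past the limit. With a log2 fold change beyond 1 required as well, the genes called higher and lower numbered 1 and 34 in the HaCaT response, 0 and 17 in the TIGK response, 23 and 48 between the untreated lines, 16 and 48 between the treated lines, and 2 and 0 in the difference of responses. At an adjusted p under 0.05 there were 12 higher in HaCaT, 13 higher and 81 lower in TIGK, and 17 and 7 in the difference. DESeq2 called 7 higher in TIGK and 4 lower in the difference (its adjusted p was missing for up to 9 genes), and the fit on the compared groups called 8 higher in TIGK. Without the filter the difference gave 14 and 3. With the replicate block 1 gene was called lower in the difference, and the other counts stayed within 1.5 times. Leaving out each library in turn gave 3 to 7 higher and 66 to 92 lower in HaCaT, 3 to 8 and 39 to 59 in TIGK, 28 to 38 and 74 to 84 between the untreated lines, 19 to 26 and 79 to 98 between the treated lines, and 6 to 13 and 0 to 3 in the difference. The higher HaCaT count fell to 3 and 4 without untreated HaCaT replicates 1 and 2, the higher TIGK count rose to 8 and 7 without treated HaCaT replicates 1 and 2, and the lower difference count rose to 3 without treated HaCaT replicate 3. The causes were not tested. Few reads limit what can be seen for the near-silent genes, where a count of 0 gives a bound alone, and levels are relative to all counted RNA.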
